A study of Mus musculus with 18 samples.

Results

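The comparison of intermittent hypoxia with room air used 12 of the 18 arrays of the series: 6 from kidneys of CD1 mice kept in intermittent hypoxia and 6 from kidneys of CD1 mice kept in normal air. These 12 arrays were chosen by their titles alone, with no measured value used. CD1 is an outbred mouse stock. Pups entered the chambers at postnatal day 2 and stayed for 1, 2 or 4 weeks, so animals of the longer exposures were also older. In intermittent hypoxia the oxygen level was switched between 21% and 11% every 4 minutes, whereas normoxia was normal atmospheric air throughout. Litters were divided among the groups, and the litter of each animal is not given in the labels. Each of the 6 groups (a condition at a duration) had 2 arrays, called A and B here.

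By its labels, every array compared the kidneys of a male, labelled with the red dye Cy5, with those of a female of the same condition and duration, labelled with the green dye Cy3, from 60 ug of total RNA each. The value is the log2 ratio of the channels. It is therefore a balance between a male and a female kidney, not a level of expression, and a response of the same size in both animals leaves it where it was. The labels do not say which channel was divided by which, and they give the same dye orientation for every array, so a higher ratio below says nothing about which sex changed. Eif2s3y, a gene of the Y chromosome, goes against a single orientation: it was below 0 on 6 arrays and above 0 on 6, from -2.19 to 1.63. Kdm5c, a gene of the X chromosome, did not change sign: it was below 0 on every array, from -0.666 to -0.0586. Going by Eif2s3y, the dyes or animals of single arrays may differ from their labels. Kdm5c shows no such change, and which arrays would differ is not settled. An array turned round would carry every ratio with the opposite sign. Male and female below are the labels' words. The female of intermittent hypoxia 2 weeks A carries in its label the duration and animal code of the female of intermittent hypoxia 1 week A, so these arrays may share an animal. P-values measure the spread between arrays, each a different pair of animals apart from that case.

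Low oxygen stabilises the alpha subunits of the hypoxia-inducible factors (HIF), which pair with Arnt and bind a short core sequence near genes of glycolysis, iron handling, vessel growth and mitochondrial turnover. In normal oxygen the prolyl hydroxylases mark HIF alpha for destruction through Vhl. The kidney senses oxygen to set erythropoietin output, its tubules depend on mitochondrial respiration, and in the mouse its outer part goes on forming nephrons after birth. Repeated falls and returns of oxygen are also studied as a source of oxidants, which antioxidant enzymes and chaperones counter.

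Of 16128 probes, 6365 were measured on 10 or more of the 12 arrays, with 1 or more in each group. They gave 5605 features after the probes of a gene were averaged: 3943 named genes and 1662 probes without a single gene symbol. Values were present for 42.9 to 65.7% of probes on the intermittent hypoxia arrays and for 41 to 67.9% on the normoxia arrays. Kidney markers with a value on all 12 arrays included Lrp2 and Miox of the proximal tubule, Calb1 of the distal tubule, and Wt1 and Podxl of the podocyte. Umod, Slc12a1 and Aqp2 were not among the features kept. Ratios cannot show how strongly a marker was expressed.

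Over all durations no gene passed the test. Of the 5605 features, 0 passed limma's moderated test at an adjusted p of 0.05 (0% of those tested, smallest adjusted p = 0.996), and 194 had an unadjusted p under 0.05, which is 3.46%: 110 with a higher and 84 with a lower ratio in intermittent hypoxia. Without variance moderation 0 passed and 230 had an unadjusted p under 0.05. The median size of the difference was 0.12 on the log2 scale, against a median standard error of 0.18. The 95% interval lay within 1 log2 unit of 0 for 5501 features (98.1%). The estimate was over 1 unit for 5 features: Apoa1, Hdc, Timd2, Eif2s3y and a probe without a symbol.

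The genes with the smallest p and the same sign at 1, 2 and 4 weeks show what the steadiest differences look like. There were 392 named genes with a value on all 12 arrays and the same sign at each duration, 202 higher and 190 lower. The 20 with the smallest p, 10 in each direction, all had an adjusted p of 0.996, so none is called changed.

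**Figure D1:**
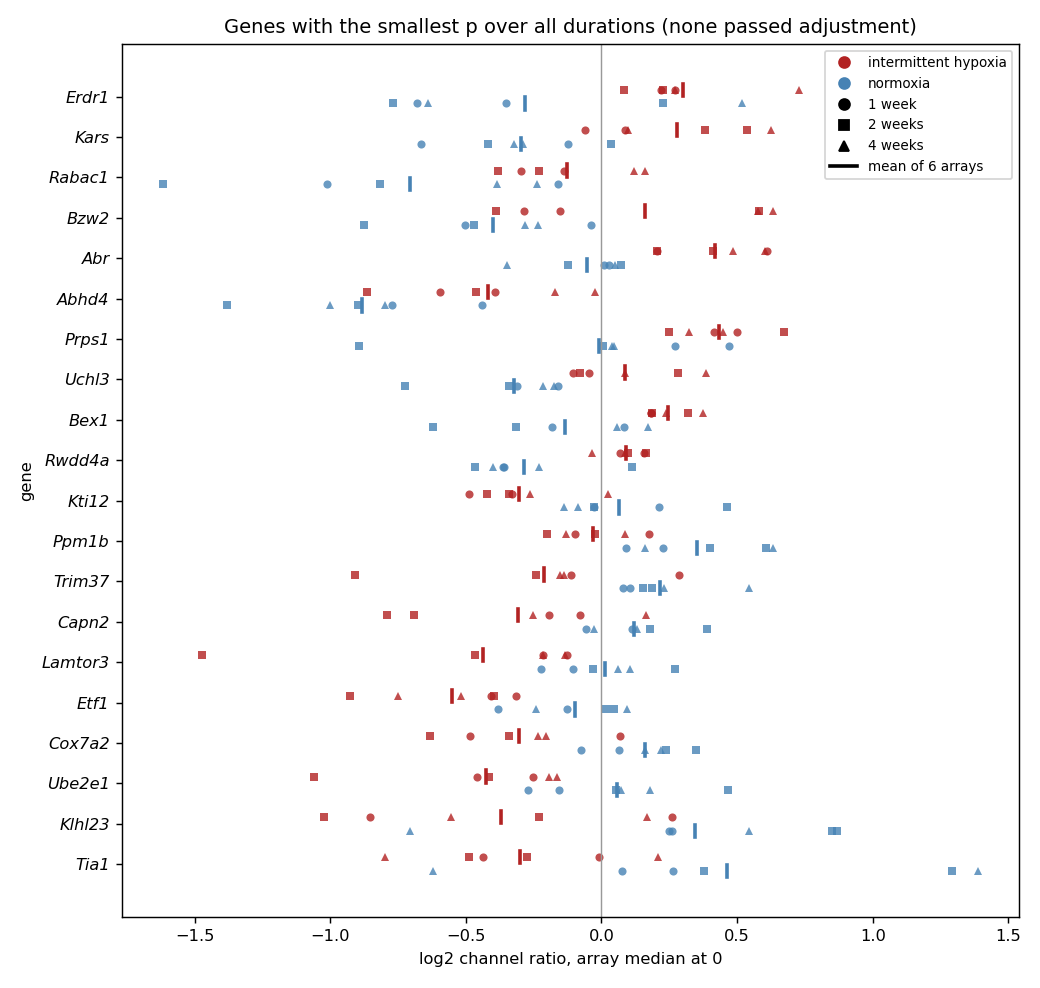
Log2 channel ratio (horizontal axis) on each of the 12 arrays for the 20 genes with the smallest p among those with the same sign at all durations, with intermittent hypoxia in red, normoxia in blue, durations as marker shapes and the mean of 6 arrays as a bar. For Abr, Uchl3 and Bex1 every red point lies to the right of every blue one; for the other 17 the groups overlap.

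Among genes with a higher ratio, Kars, the lysyl-tRNA synthetase, ran from -0.06 to 0.63 on the intermittent hypoxia arrays (median 0.24) and from -0.67 to 0.03 on the normoxia arrays (median -0.31). Its difference was 0.58 (SE 0.16), and a single normoxia array, 2 weeks B, overlapped the intermittent values. Abr stood between 0.20 and 0.61 in intermittent hypoxia and between -0.35 and 0.07 in normoxia, a difference of 0.47 (SE 0.15) with no overlap. Uchl3, a ubiquitin hydrolase, ran from -0.11 to 0.38 against -0.72 to -0.16 (difference 0.41, SE 0.15). Bex1 ran from 0.18 to 0.37 against -0.62 to 0.17 (difference 0.38, SE 0.14). The intermittent hypoxia arrays lay closer together for Bex1 than the normoxia arrays did. Its spread between arrays A and B did not pass the test (log2 ratio of spreads -0.84, SE 0.77, limma adjusted p = 0.998). Rabac1, an acceptor of prenylated Rab proteins, was negative on every normoxia array, from -1.62 to -0.16, and ran from -0.38 to 0.16 in intermittent hypoxia (difference 0.58, SE 0.18). Bzw2, Abhd4, Erdr1, Prps1 and Rwdd4a completed the list, with differences between 0.37 and 0.58.

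Among genes with a lower ratio, Cox7a2, a subunit of cytochrome c oxidase, ran from -0.63 to 0.07 in intermittent hypoxia and from -0.08 to 0.35 in normoxia (difference -0.46, SE 0.15). Intermittent hypoxia 1 week A, at 0.07, was the array that overlapped. Etf1, the translation release factor, was negative on all 6 intermittent hypoxia arrays, from -0.93 to -0.32, and ran from -0.38 to 0.10 in normoxia (difference -0.45, SE 0.15). Capn2, a calcium-dependent protease, differed by -0.43 (SE 0.14), mostly at 2 weeks (-1.02), with -0.16 and -0.10 at 1 and 4 weeks. Ube2e1, a ubiquitin-conjugating enzyme, differed by -0.48 (SE 0.16) and Lamtor3, of the Ragulator complex, by -0.45 (SE 0.17). For both the lowest value was on intermittent hypoxia 2 weeks B (-1.06 and -1.47). Klhl23, Trim37, Ppm1b, Tia1 and Kti12 differed by -0.76 to -0.37, the largest being Tia1, an RNA-binding protein of stress granules, whose normoxia arrays alone spanned -0.62 to 1.39.

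A count that uses no variance model was made as well. Among 3411 features with a value on all 12 arrays, the ranges of the 6 intermittent hypoxia and 6 normoxia arrays did not overlap for 6 (0.176%). These were Abr, Uchl3, Bex1, Atp5h and Rgs2, higher, and Selenoi, lower; the last 3 were named after their values were seen. Atp5h, of the mitochondrial ATP synthase, ran from 0.13 to 0.51 against -0.07 to 0.13. Rgs2, which limits signalling of G-protein-coupled receptors such as that for angiotensin, ran from -0.17 to 0.79 against -0.72 to -0.17. Selenoi, an enzyme of phosphatidylethanolamine synthesis, ran from -0.56 to -0.05 against 0.00 to 0.25. How many features would separate by chance was not computed, and all 6 had an adjusted p of 0.996 by limma.

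Genes of oxygen sensing and of the HIF response showed no called change. Of 15 measured HIF targets and regulators outside glycolysis, 9 had a higher and 6 a lower ratio over all durations, with a median difference of 0.01 beside 0.01 over all 5605 features, of which 51.6% were higher. Hif1a itself differed by 0.22 (SE 0.19) and its partner Arnt by 0.02 (SE 0.17). Egln1, a prolyl hydroxylase, differed by 0.02 (SE 0.18) and Vhl by -0.04 (SE 0.19). Among targets, Adm stood at 0.13, Bnip3 at -0.14, P4ha1 at -0.28, Igfbp3 at 0.17 and Tfrc at -0.09, with standard errors of 0.16 to 0.21.

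Pdk1, the kinase that turns pyruvate away from the mitochondrion, had the smallest p of these genes. It ran from -0.10 to 1.28 in intermittent hypoxia (median 0.15) and from -0.84 to 0.58 in normoxia (median -0.38), a difference of 0.59 (SE 0.20, limma adjusted p = 0.996). The difference came from 2 weeks, where the intermittent hypoxia arrays stood at 0.62 and 1.28 and the normoxia arrays at -0.62 and -0.84 (difference 1.68, limma adjusted p = 0.161). At 1 and 4 weeks it was 0.13 and -0.05. The Pdk1 probe is numbered 9671. At number 9651 a running median along the probe numbers was 0.517 on intermittent hypoxia 2 weeks B, which holds the 1.28. That median was -0.0147 on intermittent hypoxia 2 weeks A, and 0.0472 and -0.0396 on normoxia 2 weeks A and B. The 250 bases before the start of Pdk1 are shown because it is the HIF target with the largest difference; capitals mark the HIF core, searched as ACGTG or GCGTG on both strands, and the sequence is from RefSeq for build GRCm38.p6, chr2:71872974-71873223, plus strand.

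Pdk1: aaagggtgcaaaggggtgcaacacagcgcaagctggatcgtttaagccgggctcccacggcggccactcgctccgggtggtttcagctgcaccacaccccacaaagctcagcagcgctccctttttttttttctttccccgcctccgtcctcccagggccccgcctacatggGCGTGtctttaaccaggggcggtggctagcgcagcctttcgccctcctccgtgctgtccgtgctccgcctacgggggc

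That window held 1 match, and it was the richer of the 2 windows listed for Pdk1. The core was present in 38.6% of all 32851 windows of 250 bases, and in at least 1 window of 66.3% of the 3227 tested genes that matched the RefSeq table by symbol. Of the HIF targets outside glycolysis, 11 of the 13 matched had it, as had 10 of 10 glycolysis genes. A match is a stretch of letters and not a shown binding site.

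At 2 weeks 3 features passed, which is 0.0535% of 5605: the ratio of Hdc was lower, and those of Slc39a10 and a probe without a symbol were higher. Each rests on a single array in at least 1 group, and none was kept under every setting. At that duration 685 features (12.2%) had an unadjusted p under 0.05, against 111 (1.98%) at 1 week and 452 (8.06%) at 4 weeks. That order was not kept under other settings: with arrays scaled to the same spread the counts were 230, 320 and 742 at 1, 2 and 4 weeks, and with array weights, chosen after seeing the data, 277, 233 and 841. Leaving out intermittent hypoxia 2 weeks A or B gave 1383 or 321 at 2 weeks, and leaving out intermittent hypoxia 4 weeks B gave 128 at 4 weeks. By limma 0 features passed at 1 week (smallest adjusted p = 0.427) and 0 at 4 weeks (smallest adjusted p = 0.561), and without variance moderation 144 and 402 had an unadjusted p under 0.05 and again 0 passed.

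**Figure D2:**
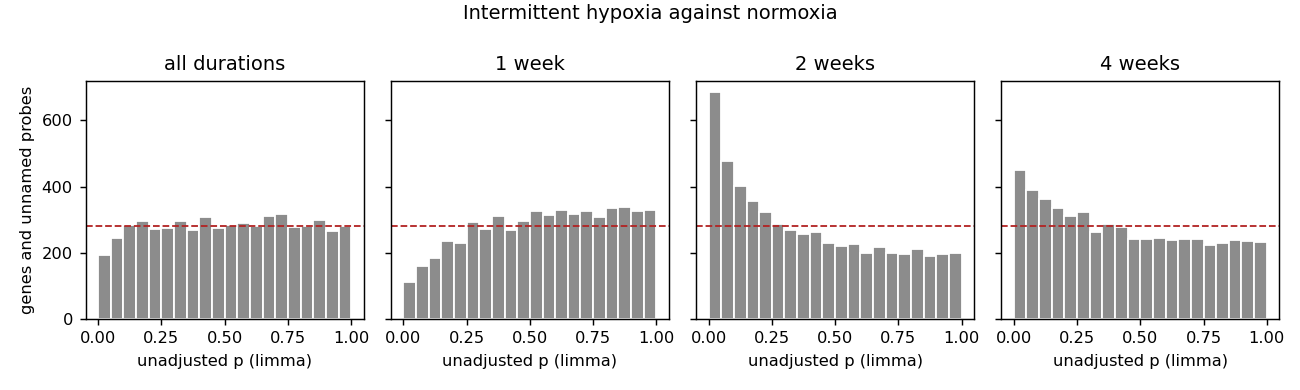
Number of features (vertical axis) by unadjusted limma p (horizontal axis, 20 bins) for all durations together and for each duration; the dashed line is an even spread. The first bin holds 194 features over all durations, 111 at 1 week, 685 at 2 weeks and 452 at 4 weeks.

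Hdc encodes the enzyme of histamine synthesis. It had ratios of 2.97 and 2.80 on the normoxia 2-week arrays and -1.93 on intermittent hypoxia 2 weeks A, with no value on 2 weeks B. These values come from probe 338, as another Hdc probe, 6885, was not kept by the filter. The difference was -4.81 (SE 0.74, limma adjusted p = 0.04996), with 1 array against 2. Its other values were 0.19 and -1.84 (intermittent) and 0.18 and -0.81 (normoxia) at 1 week, and -0.58 and 0.92 (intermittent) and -0.60 (normoxia A, with no value on B) at 4 weeks. The normoxia arrays at 2 weeks were thus the ones that stood apart from the other 8 values, and the differences at 1 and 4 weeks, -0.51 and 0.77, had opposite signs. Slc39a10, a zinc importer, had 2.14 on intermittent hypoxia 2 weeks B and -1.02 on normoxia 2 weeks A, a difference of 3.17 (SE 0.49, limma adjusted p = 0.04996) that rests on 1 array against 1, since the other array of each pair had no value. Its standard error comes from the other groups and the moderation, and assumes that the lone arrays vary alike. At 1 and 4 weeks its difference was 0.07 and -0.62.

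**Figure D3:**
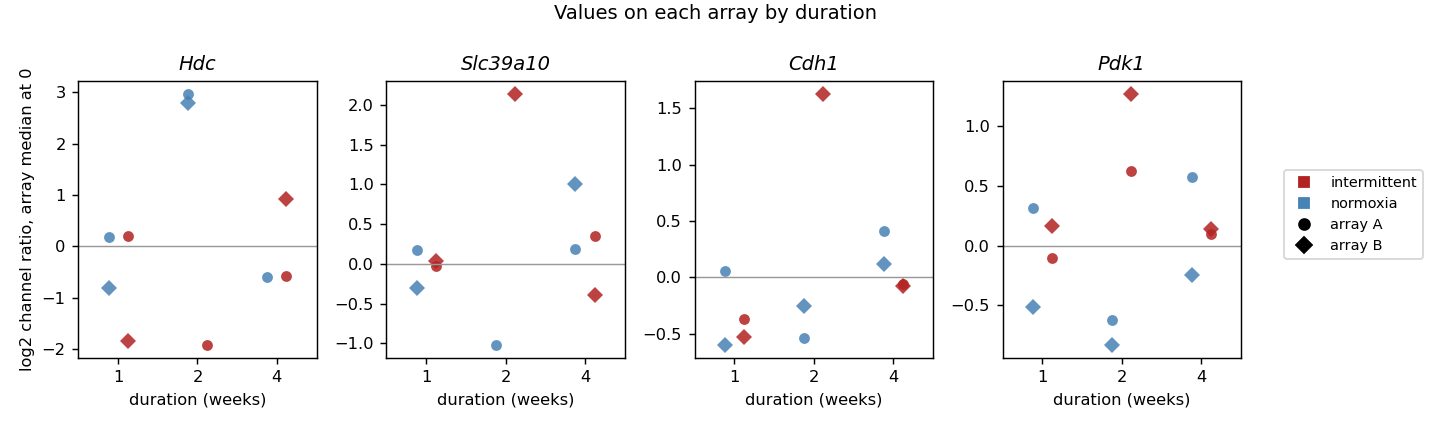
Log2 channel ratio (vertical axis) on each array with a value, by duration in weeks, for Hdc, Slc39a10, Cdh1 and Pdk1, with intermittent hypoxia in red and normoxia in blue. At 2 weeks the Hdc normoxia arrays lie at 2.97 and 2.80 against -1.93, and Slc39a10 and Cdh1 each show a single intermittent hypoxia array, at 2.14 and 1.63.

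The 250 bases before the start of the named genes that passed are shown for comparison with Pdk1, from RefSeq for the same build: chr2:126618679-126618928, minus strand, for Hdc, and chr1:46925777-46926026, minus strand, for the first of the 2 windows listed for Slc39a10.

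Hdc: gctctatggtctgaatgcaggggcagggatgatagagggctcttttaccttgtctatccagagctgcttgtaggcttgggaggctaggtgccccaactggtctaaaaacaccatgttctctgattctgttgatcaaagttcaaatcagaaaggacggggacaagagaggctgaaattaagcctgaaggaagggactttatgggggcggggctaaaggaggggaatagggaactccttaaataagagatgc

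Slc39a10: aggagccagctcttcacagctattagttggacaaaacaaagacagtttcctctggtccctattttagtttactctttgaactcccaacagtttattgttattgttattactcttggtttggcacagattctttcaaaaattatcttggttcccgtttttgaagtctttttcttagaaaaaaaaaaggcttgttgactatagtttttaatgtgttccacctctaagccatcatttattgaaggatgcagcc

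Neither holds the HIF core, so no letter is in capitals. The calls at 2 weeks moved with single arrays. The count was 610 without intermittent hypoxia 2 weeks A, 1 (Hdc) without either intermittent hypoxia 1-week array, 3 without either normoxia 4-week array, and 0 without any other array. It was also 0 on the values as deposited, with a smallest adjusted p of 0.0565.

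Intermittent hypoxia 2 weeks B stood apart from the other arrays. Its interquartile range over features was 0.866, against 0.302 to 0.605 on the other 11 arrays. A running median along the probe numbers of the deposited table spanned 2.23 log2 units on that array, against 0.548 to 1.40 on the others. Cdh1, the epithelial cadherin, had 1.63 there and no value on 2 weeks A (difference at 2 weeks 2.02, limma adjusted p = 0.0664), and Arrb2, an arrestin, had 2.21 with no value on 2 weeks A. Their probes are numbered 9806 and 9804, and another Cdh1 probe, 9238, was not kept by the filter. The median over the 57 probes with a value within 50 numbers of the kept Cdh1 probe was 1.06 on this array and between -0.26 and 0.24 on the other 11. Slc44a2, a choline transporter-like protein, had -1.66 on this array and its neighbours a median of -1.17; the neighbours of the Slc39a10 probe had a median of 0.763. A difference over 1 log2 unit at 2 weeks was found for 249 features, of which 115 (46.2%) had a single array in a 2-week group, against 31.3% of all features and 26.1% of the 685 with an unadjusted p under 0.05 at that duration. An unadjusted p under 0.05 at 2 weeks was found for 95 of the 488 features (19.5%) with a value on 2 weeks B but not A, and for 36 of the 851 (4.23%) with a value on A but not B. The part of position along the table in the 2-week calls was not tested. With the running median removed from every array 0 features passed by limma (smallest adjusted p = 0.0667), and 696 had an unadjusted p under 0.05 at 2 weeks, against 685 before.

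**Figure D4:**
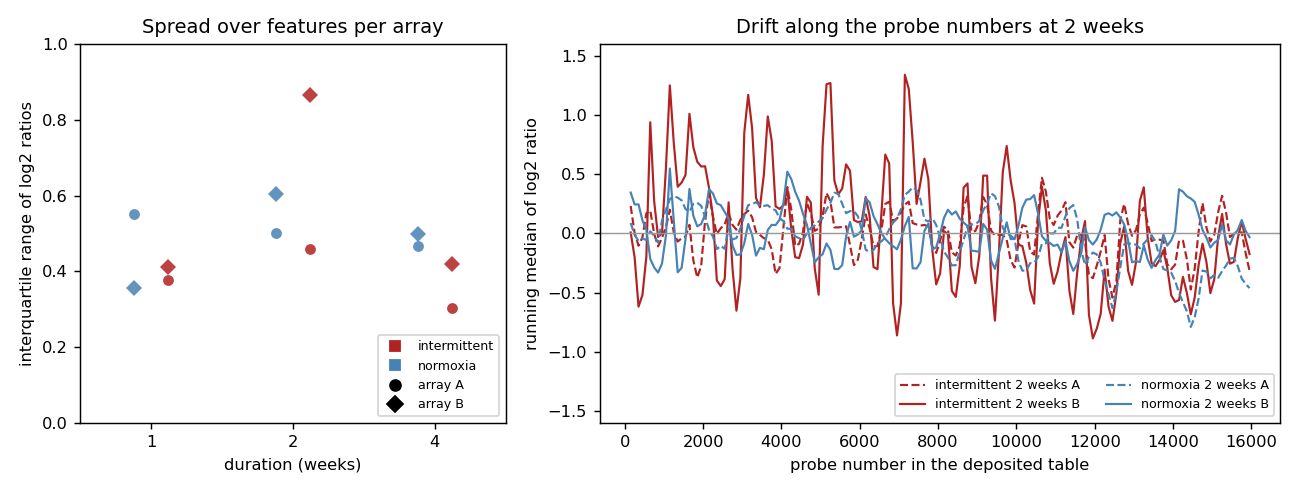
Left, interquartile range of the log2 ratios over features (vertical axis) for each array by duration, with intermittent hypoxia in red and normoxia in blue. Right, running median of the log2 ratio (vertical axis) along the probe numbers of the deposited table for the 4 arrays at 2 weeks. Intermittent hypoxia 2 weeks B has the widest range, 0.866, and swings between -0.887 and 1.34.

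At 1 week the genes with the smallest p were 2410002F23Rik (1.68), Nexn (1.26) and Avpi1 (0.91) on the higher side and Tada2a (-1.50), Nes (-1.02) and Acvr2b (-0.95) on the lower. At that duration 2410002F23Rik had no value on intermittent hypoxia A, Nexn none on intermittent hypoxia B, and Tada2a none on normoxia A. Each of those differences thus rests on 1 array against 2. Nes, the intermediate filament nestin, had -0.53 and 0.07 in intermittent hypoxia and 0.80 and 0.78 in normoxia. Avpi1, named for its induction by vasopressin, had 1.36 and 0.99 against 0.50 and 0.04. The groups did not overlap for these, and no test was passed. At 4 weeks the genes with the smallest p were Dynlt1b (1.55), Hspb1 (1.13) and Dsc2 (1.35) on the higher side and Selenop (-2.25), Cycs (-1.20) and Adcy3 (-1.03) on the lower. Dsc2 had no value on intermittent hypoxia 4 weeks A, so its difference rests on 1 array against 2. Hspb1, a small heat shock protein, had 0.25 and 0.34 in intermittent hypoxia against -0.65 and -1.02 in normoxia. Selenop, the plasma selenium carrier, had -0.64 and -1.71 against 0.38 and 1.77, and Cycs, cytochrome c, -0.32 and -0.67 against 0.36 and 1.05. For all 3 genes the normoxia 4 weeks B array was the farthest from 0.

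Whether the difference varied with duration was tested directly. Of 5605 features 0 passed the interaction test (limma, smallest adjusted p = 0.201), 600 (10.7%) had an unadjusted p under 0.05, and the 5 genes with the smallest p were Slc39a10, Gmfb, Cdh1, Hdc and Pgk1. Pgk1, a glycolytic kinase that HIF induces, had values on all 12 arrays. Its differences were 0.50 at 1 week, 0.72 at 2 weeks and -0.999 at 4 weeks. The intermittent hypoxia arrays stayed between -0.45 and 0.12 at all durations. The normoxia arrays stood at -0.31 and -0.73 at 1 week, -0.64 and -0.77 at 2 weeks, and 0.49 and 0.74 at 4 weeks. Between 2 and 4 weeks the normoxia arrays thus moved further than the intermittent hypoxia arrays.

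Glycolysis genes as a group followed the order of Pgk1. Of 10 measured, 9 had a higher ratio at 1 week (median 0.36), 10 at 2 weeks (median 0.17) and 2 at 4 weeks (median -0.29), while over all features the medians were 0.05, -0.03 and -0.03. Ldha, lactate dehydrogenase A, stood at 0.43, 1.07 and -1.02 at 1, 2 and 4 weeks, Aldoa at 0.41, 0.16 and -0.30, and Gapdh at 0.36, 0.27 and -0.29. In all, 8 of the 10 were higher, higher and then lower, against 17.9% of all features. The order was read from Pgk1, itself named for its small interaction p on the same values. The count is therefore a description and not a test. That count was 4 of 10 without normoxia 2 weeks B (14.3% of all features) and 4 of 10 with the running median removed (19.6%). No member passed at any duration or over all durations. The count at 2 weeks moved with the setting: 7 of 10 were higher on the values as deposited, 5 of 10 with the running median removed, and 6 of 10 without normoxia 2 weeks B, whose median over glycolysis genes was -0.53.

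Enzymes of the tricarboxylic acid cycle had the same order of signs, with 15, 15 and 4 of 19 higher at 1, 2 and 4 weeks (medians 0.19, 0.17 and -0.31). Idh3b and Sdhd, which make up parts of isocitrate and succinate dehydrogenase, differed over all durations by 0.48 (SE 0.21) and 0.35 (SE 0.16), with an adjusted p of 0.996 each by limma. The Idh3b probes 1251 and 6680 differed by 0.17 and 0.47 over all durations, and by -0.02 and 1.32 at 2 weeks. Probe 6680 and the Sdhd probe, 6633, lie near number 6651. There the running median along the probe numbers was 0.666 on intermittent hypoxia 2 weeks B. Without normoxia 2 weeks B 9 of 19 were higher at 2 weeks. Fatty acid oxidation and peroxisome genes had 15, 12 and 5 of 20 higher (medians 0.23, 0.15 and -0.40), and 42 oxidative phosphorylation genes had 29, 16 and 22 higher (medians 0.14, -0.19 and 0.01), the 16 being 26 of 42 without intermittent hypoxia 2 weeks B. Over all features 3197, 2647 and 2628 of 5605 were higher at 1, 2 and 4 weeks. The medians of these 3 lists were -0.303, -0.266 and -0.3 on normoxia 1 week A. They were -0.103, -0.0903 and 0.077 on normoxia 1 week B. On intermittent hypoxia at 1 week they were -0.122, -0.0699 and -0.042 (A) and 0.0217, 0.0627 and -0.0131 (B).

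**Figure D5:**
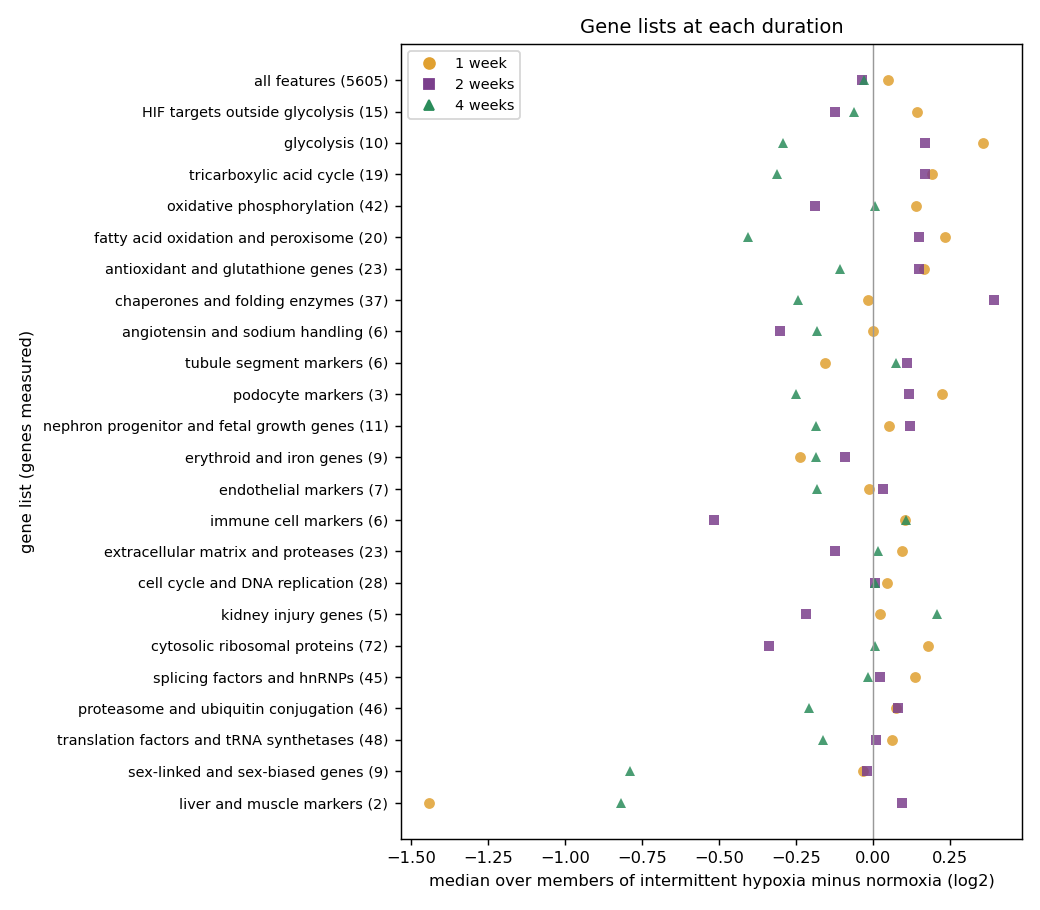
Median over the measured members of each gene list (number of genes in brackets) of intermittent hypoxia minus normoxia on the log2 scale (horizontal axis), at 1, 2 and 4 weeks. Glycolysis, tricarboxylic acid cycle and fatty acid oxidation genes lie to the right of 0 at 1 and 2 weeks and to the left at 4 weeks, as do antioxidant, podocyte, nephron progenitor, splicing, proteasome and translation genes, and no member passed in any of them.

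Defence and protein-handling genes had no called member either. Of 23 antioxidant and glutathione genes 15 were higher over all durations (median 0.06). Mt2, a metallothionein that binds zinc and copper, had the smallest p among them: it ran from 0.13 to 1.58 in intermittent hypoxia on 5 arrays and from -0.48 to 0.39 in normoxia (difference 0.59, SE 0.21, limma adjusted p = 0.996), and Mt1 differed by 0.44 (SE 0.28). Chaperones and folding enzymes had 25 of 37 higher over all durations (median 0.05) and 30 of 37 at 2 weeks (median 0.39), and 9 of the 37 had an unadjusted p under 0.05 at 2 weeks, where 12.2% of all features did. Without intermittent hypoxia 2 weeks B, 22 of the 34 still measured were higher at 2 weeks. Cytosolic ribosomal proteins had 62 of 72 higher at 1 week (median 0.18) and 17 of 72 at 2 weeks (median -0.34), the latter being 32 of 72 (median -0.06) without that array. At 1 week 3197 of all 5605 features were higher. The ribosomal medians at 1 week were 0.0339 and -0.0477 on intermittent hypoxia A and B, and -0.295 and -0.0907 on normoxia A and B.

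No member of the remaining lists passed over all durations. The medians over all durations were -0.03 for 46 proteasome and ubiquitin genes (20 higher), 0.00 for 48 translation factors and tRNA synthetases (25 higher), 0.03 for 45 splicing factors (26 higher), 0.03 for 28 cell cycle genes (15 higher) and 0.04 for 23 matrix genes (14 higher). Proteasome and translation genes had, at 4 weeks, 12 of 46 and 14 of 48 higher (medians -0.21 and -0.16), where 2628 of 5605 features were higher. Sf3b1, a spliceosome component, differed by 0.68 (SE 0.18) with the 5 intermittent values between -0.57 and -0.13 and the normoxia values between -1.88 and -0.45. Among 6 angiotensin and sodium-handling genes (2 higher, 3 of 5 without intermittent hypoxia 2 weeks B), Sgk1, the kinase that raises sodium transport, ran from -1.01 to -0.11 against -1.39 to -0.41 (difference 0.40, SE 0.19). Of 5 injury genes 4 were higher (median 0.17), with Krt8 at 0.26 (SE 0.14) and Clu at 0.14 (SE 0.16).

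Markers of cell types were measured in small numbers and none passed. Over all durations 1 of 6 tubule markers was higher (Gatm, 0.44, SE 0.22), 1 of 3 podocyte markers (Cd2ap, 0.07, SE 0.16), 3 of 7 endothelial markers, 2 of 6 immune markers and 2 of 9 erythroid and iron genes. Without intermittent hypoxia 2 weeks B these counts became 3 of 6 for tubule, 1 of 5 for immune and 5 of 9 for erythroid genes, and without normoxia 2 weeks B 4 of 6 for tubule markers. Cd34, of endothelium and progenitors, differed by -0.35 (SE 0.16). The complement genes C1qa and C1qc, made by macrophages, differed at 2 weeks by -1.01 and -1.28, with intermittent hypoxia 2 weeks B at -1.51 and -1.65. Their probes are numbered 12020 and 4888. On that array the running median along the probe numbers was -0.804 at 12051. The probes within 50 numbers of 4885 had a median of -0.946 there. The part of position in these 2 differences was not tested. Of 11 genes of nephron progenitors and fetal growth 7 were higher (4 without normoxia 2 weeks B), with the imprinted RNA H19 at -0.35 (SE 0.21). These are ratios between a male and a female kidney, so a lower ratio could come from less RNA in the one animal or more in the other. A change in cell number and a change in RNA per cell cannot be told apart in whole kidneys.

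Of 9 measured sex-linked and sex-biased genes 4 were higher over all durations (median -0.11) and 3 at 4 weeks (median -0.79), and some had large differences. Eif2s3y, on the Y chromosome, ran from -2.19 to 0.15 in intermittent hypoxia and from -1.87 to 1.63 in normoxia (difference -1.02, SE 0.47, limma adjusted p = 0.996), so its sign differed between arrays that are all labelled as a male against a female. Timd2, Odc1 and Nudt19, from the list of genes with sex-biased expression, differed by -2.21, -1.58 and -1.25 at 4 weeks, where normoxia B stood at 2.13, 1.66 and 1.56 and intermittent hypoxia B at -1.72, -1.44 and -1.55. On the A arrays at 4 weeks the same genes stood at 0.20, -0.08 and -0.51 in normoxia and at -0.35, -0.14 and 0.09 in intermittent hypoxia. Eif2s3y followed them on the B arrays, at 1.63 and -1.64. Apoa1, an apolipoprotein made mainly in liver, differed by -1.54 (SE 0.54), with 4.61 on normoxia 1 week B and at most 0.89 on any other array. Apob, the other measured liver gene, differed by 0.10 (SE 0.14) over all durations and by 0.86 at 2 weeks. The part of single arrays in these differences was not tested.

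The spread between the arrays of a group was also compared gene by gene, as the log2 absolute difference between arrays A and B. Intermittent hypoxia had the wider spread for 1568 of 3411 features (46%), and the median log2 ratio of spreads, intermittent over normoxia, was -0.06. By limma 0 features passed (smallest adjusted p = 0.998) and 113 (3.31%) had an unadjusted p under 0.05, 48 wider and 65 narrower in intermittent hypoxia. Pdzd2, BC035044, Mrpl35, Gtf2i, Ckap2 and Rnf185 had the smallest p among wider genes. For Gtf2i, a general transcription factor, the pairs in intermittent hypoxia were 0.35 and -0.66, -0.47 and 0.43, and -0.34 and -0.26, and in normoxia -0.15 and -0.15, 0.05 and 0.07, and 0.09 and -0.05. Mrpl20, Zdhhc5, Tead1, Nfia, Vps45 and Hsd3b1 had the smallest p among narrower genes. For Nfia, a transcription factor of the developing urinary tract, the pairs in intermittent hypoxia were -0.13 and -0.14, -0.30 and -0.28, and -0.10 and -0.05, and in normoxia 0.52 and 0.03, -0.27 and 0.35, and 0.25 and -0.03.

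Single values per array or pair gave no difference beyond the spread. The interquartile range over features was 0.473 ± 0.2 (SD, n = 6) in intermittent hypoxia and 0.497 ± 0.084 (SD, n = 6) in normoxia (exact permutation test within durations, two-sided, p = 0.796, adjusted 1 over 4 such tests, smallest possible p = 0.00926). The median absolute difference between arrays A and B was 0.21, 0.451 and 0.223 at 1, 2 and 4 weeks in intermittent hypoxia, and 0.262, 0.377 and 0.258 in normoxia (exact permutation test, p = 1, with a smallest possible p of 0.1 for 3 pairs against 3). The 2-week pair was the most discordant in both conditions. As a description across features, the correlation between an intermittent hypoxia and a normoxia array had a median of 0.315 over 36 pairs (-0.193 to 0.475), and between 2 intermittent hypoxia arrays of different durations 0.333 over 12 pairs. The arrays share their probes and, by their labels, their dye orientation, which enter every such correlation.

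Because the direction of the ratio is not given, its size was also compared without its sign. By limma 0 of 5605 features passed (smallest adjusted p = 0.984) and 244 (4.35%) had an unadjusted p under 0.05, 98 larger and 146 smaller in intermittent hypoxia. Arrb2, Slc44a2 and Psmd12 had the smallest p on the larger side, and each had no value on intermittent hypoxia 2 weeks A and its extreme on 2 weeks B. Sf3b1, Pgk1 and Pgap2 had the smallest p on the smaller side.

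Finally, presence itself was counted. No probe had a value on all 6 arrays of either condition and on none of the other. A value on 5 or 6 intermittent hypoxia arrays and at most 1 normoxia array was found for 5 of 16128 probes (0.031%), and the opposite for 34 (0.211%). The share of probes with a value was 55% ± 10.2 (SD, n = 6) in intermittent hypoxia and 58.4% ± 10.2 (SD, n = 6) in normoxia (exact permutation test within durations, two-sided, p = 0.306).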

How the data were processed

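Kidney RNA was hybridised to 2-colour spotted arrays, and the authors deposited log2 channel ratios. Background correction, scaling and ratio direction: not given in the sources used here. Each array was centred on its median and probes measured on 10 or more of 12 arrays, with 1 or more in each group, were kept. Symbols came from the platform annotation (9604 probes with 1 symbol, 213 with several, 6311 with none), and probes of a gene were averaged; 301 of 616 such genes had probes of opposite sign. limma 3.58.1 in R 4.3.3 fitted 6 group means with empirical Bayes moderation, tested the mean over durations, each duration and their interaction, and adjusted p-values over all features by Benjamini-Hochberg; a missing array drops out of a gene's fit. Spread was log2(absolute difference of arrays A and B + 0.1). The scripts were tested on simulated data. Figures used matplotlib. No depth is known for these ratios; 2 arrays a group limit the precision. No slide or scan batch is labelled.

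Genes were named by rule: for all durations the 10 smallest p in each direction among genes on all 12 arrays with the same sign throughout, 3 in each direction per duration, 5 for the interaction, 6 in each direction for spread, 3 for size, and up to 3 per gene list. Other list members were named as examples of their role, with their values known. The comparison, rules and lists were chosen with earlier results of these data known. The letters A and B were not used to pair arrays across conditions in the main fit. Deviations of arrays with the same letter correlated across features at 0.0541, -0.0595 and -0.265 at 1, 2 and 4 weeks. These correlations are a description and cannot settle whether the arrays were paired.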

Additional observations from a re-analysis of the deposited data

Results flagged for a closer look

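Dixon's test was run in 44 groups of 4 to 10 arrays and set 7 values apart; chance sets apart about 1 in 20 groups. The interquartile range over features of intermittent hypoxia 2 weeks B was 0.866. On the same array Ube2e1 stood at -1.06 and Lamtor3 at -1.47, each the lowest of 6 intermittent hypoxia arrays. Among the normoxia arrays, Uchl3 was lowest on 2 weeks B (-0.724), Prps1 lowest on 2 weeks A (-0.893) and Trim37 highest on 4 weeks A (0.542). Erdr1 was highest among the intermittent hypoxia arrays on 4 weeks B (0.727).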

How the results depend on the processing

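Over all durations 0 features passed under every alternative run, including each array left out in turn. The replicate block, a fit that pairs arrays by letter, also gave 0 (smallest adjusted p = 0.126). Fewer alternatives were run for spread and size, with a count of 0 in each. At 2 weeks the 3 calls became 0 on the values as deposited, with arrays scaled alike, with the running median removed, with features on all 12 arrays, without moderation, with array weights and without both wide 2-week arrays (the last 2 chosen after seeing the data), 1 with robust moderation, and 5 with every probe on its own. With a looser filter all 3 were lost and 1 other probe passed. Centring on the features tested gave 4, adding Cdh1, and the fit of all 18 arrays gave 2, both higher, without Hdc. Leaving out an array gave 0 to 610 at 2 weeks, 0 to 147 for the interaction and 0 to 1 at 4 weeks; 610 and 147 came without intermittent hypoxia 2 weeks A, and the 1 at 4 weeks is Cndp2 without intermittent hypoxia 4 weeks A. The cause was not tested. Small differences over all durations changed sign: Ldha to -0.042 with arrays scaled and -0.036 with the running median removed, which also turned Cd2ap to -0.027, Wt1 to 0.0066, Clu to -0.036 and Apob to -0.049; Hbb-y to 0.138 without both wide arrays. With an array left out, Wt1 ran from -0.21 to 0.10, Podxl from -0.119 to 0.0859 and Tfrc from -0.188 to 0.0144.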

Other observations

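The B arrays at 4 weeks had the lowest correlation across features of the 36 pairs between conditions, -0.193, given as a description. Cndp2, a dipeptidase of the kidney, stood at 3.41 on normoxia 4 weeks B and -1.59 on intermittent hypoxia 4 weeks B, but at 2.64 on intermittent hypoxia 4 weeks A. It was looked at after its values were seen.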
